A study of Mus musculus with 19 samples.

Results

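Macrophages and stromal cultures grown from the bone marrow of mice that had not been exposed to hypergravity were compared across all genes. The comparison used 5 control libraries of bone marrow-derived macrophages (BMDM) and 5 control libraries labelled bone mesenchymal stem cells (BMSC), chosen by their titles, so 10 of the 19 libraries of the series entered. The remaining libraries came from hypergravity-exposed mice and were used only in an alternative fit. All control mice were C57bl/6, normally fed, listed at 0 G, with no transgene or deletion named in the labels, and no age is given in the sources used here. Each cell type had 3 control libraries without a duration in the title, taken here as the 1 week set because the exposed animals of the same naming pattern had 1 week of treatment, and 2 libraries titled 3W, the 3 week set. The labels also list a session of 15 min for every control library, and 3 weeks of intervention for the controls titled 3W. What a session was for the controls is not given in the sources used here. The growth protocol in the labels, serum-containing medium with M-CSF (the macrophage growth factor encoded by Csf1), speaks of macrophages and stands with the BMSC samples too, and no sorting step is named for either type. Nothing states whether replicates came from separate mice or dishes, so the p-values here reflect only how these libraries vary, which may be technical.

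BMDM arise from marrow precursors that express the M-CSF receptor and, under M-CSF, become adherent phagocytes rich in lysosomes, Fc receptors and pattern recognition receptors. Marrow stromal cells are adherent mesenchymal cells that build collagen matrix, can give rise to bone, fat and cartilage cells, and feed haematopoiesis with CXCL12, stem cell factor and M-CSF. Adherent marrow cultures made without sorting are known to hold haematopoietic cells, macrophages in particular, beside the mesenchymal cells.

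Library totals ran from 18348712 to 31206408 counts in BMDM and from 16324619 to 28050472 in BMSC. The floor used for genes without a count was 3 counts, equal to 0.0961 to 0.163 CPM (counts per 1000000 counts of the library) in BMDM and 0.107 to 0.184 CPM in BMSC. At least 1 CPM was reached by 11643 to 11937 genes in BMDM and by 12594 to 13198 in BMSC, and mitochondrially encoded genes took 1.37 to 1.61% and 1.44 to 1.78% of counts. Spearman correlations across the genes tested, which are not independent replicates, were 0.985 to 0.996 between BMDM libraries, 0.962 to 0.995 between BMSC libraries and 0.876 to 0.955 between the types. On the first principal component, with 76.2% of the variance, the types stood apart, and the second held 6.61%. Floors and intervals reflect error of counting alone.

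The first question was how many genes differed between the cell types and by how much. Of 14838 genes tested, 6578 (44.3%) passed a Benjamini-Hochberg adjusted p of 0.05 in edgeR, with 2983 (20.1%) higher in BMDM and 3595 (24.2%) higher in BMSC. The median log2 fold change over all genes was 0.01, where positive values mean higher in BMDM. The sides differed in size. With a log2 change of at least 1 required by the test, 195 genes (1.31%) were higher in BMDM and 1711 (11.5%) in BMSC. In CPM of the library total, every BMDM library lay above every BMSC library for 1245 genes (8.39%), and the reverse held for 3526 (23.8%). These overlap counts leave out the scaling factors of the fit. The factors were lower in every BMDM library than in every BMSC library, so the overlap counts lean towards BMSC. Scaling by library total alone moved the median gene to -0.14 and gave 1862 genes higher in BMDM and 4544 in BMSC, a BMDM share of 29.1% against 45.3%, so small differences towards BMDM depend on the scaling. Levels are given as CPM of the library total, mean ± SD over the 5 libraries of a type where not listed singly, and differences as log2 fold changes ± SE from the fit, whose trimmed-mean (TMM) scaling shifts them slightly from the ratio of the CPM means.

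**Figure D1:**
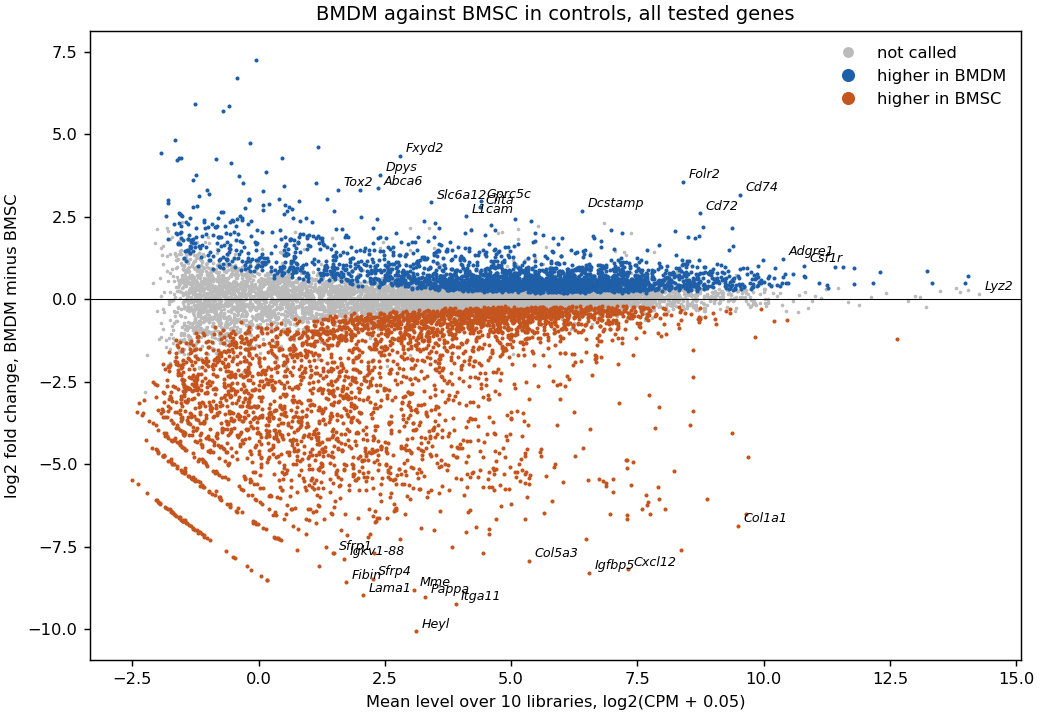
Log2 fold change (BMDM minus BMSC, vertical axis) against the mean level over the 10 control libraries (log2 of CPM + 0.05, horizontal axis) for all 14838 tested genes, 1 point per gene, coloured by the edgeR call. Called genes higher in BMSC spread down to log2 values near -10, whereas most called genes higher in BMDM lie close to the zero line.

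The markers that define the types gave an uneven picture, with stromal genes far apart and macrophage genes close. Lyz2, the lysozyme gene of macrophages and granulocytes (chromosome 10, 117277331 to 117282321, mm10), stood at 21259, 22730.5 and 22682 CPM in 1 week BMDM, 16602 and 15582 in 3 week BMDM, 17842, 17867 and 21941 in 1 week BMSC, and 20079 and 19177 in 3 week BMSC. The groups overlapped, with the 3 week BMDM libraries below all BMSC libraries, and the gene was not called (log2 fold change 0.16 ± 0.16, edgeR adjusted p = 0.423). Lyz1 is a near-identical copy, so reads may be split between them. Csf1r, the M-CSF receptor gene, stood at 2094, 2402 and 2793 CPM in 1 week BMDM, 2001 and 2183 in 3 week BMDM, 1227, 1028 and 1178 in 1 week BMSC, and 1424 and 1443 in 3 week BMSC. Every BMDM library was above every BMSC library, although BMSC kept a high level (log2 fold change 1.02 ± 0.15, edgeR adjusted p = 0.000257). Adgre1, which encodes the macrophage surface protein F4/80 (chromosome 17, 57358691 to 57483527), stood at 1441, 1761 and 1982 CPM in 1 week BMDM, 1898 and 1944 in 3 week BMDM, 733, 663 and 738 in 1 week BMSC, and 1113 and 1141 in 3 week BMSC. It too did not overlap, and the 3 week BMSC libraries were the highest of that type (log2 fold change 1.23 ± 0.15, edgeR adjusted p = 5.01e-05).

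Col1a1, which encodes the main chain of type I collagen (chromosome 11, 94936224 to 94953042), stood at 7.11, 12.1 and 17.4 CPM in 1 week BMDM, 3.98 and 9.68 in 3 week BMDM, 1465, 3208 and 1105 in 1 week BMSC, and 793 and 546 in 3 week BMSC. All BMSC libraries were far above all BMDM libraries, with 1 week replicate 2 the highest and the 3 week pair the lowest of the BMSC (log2 fold change -6.87 ± 0.41, edgeR adjusted p = 5.01e-07). Cxcl12, the chemokine gene that holds haematopoietic cells in the marrow (chromosome 6, 117168535 to 117181367), stood at 0.865, 1.63 and 0.907 CPM in 1 week BMDM, 0.639 and 0.645 in 3 week BMDM, 244, 808 and 233 in 1 week BMSC, and 147 and 162 in 3 week BMSC. Again nothing overlapped (log2 fold change -8.18 ± 0.43, edgeR adjusted p = 3.53e-07). In bulk RNA, fewer cells of a type and less RNA per cell cannot be told apart, here and in every comparison that follows.

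**Figure D2:**
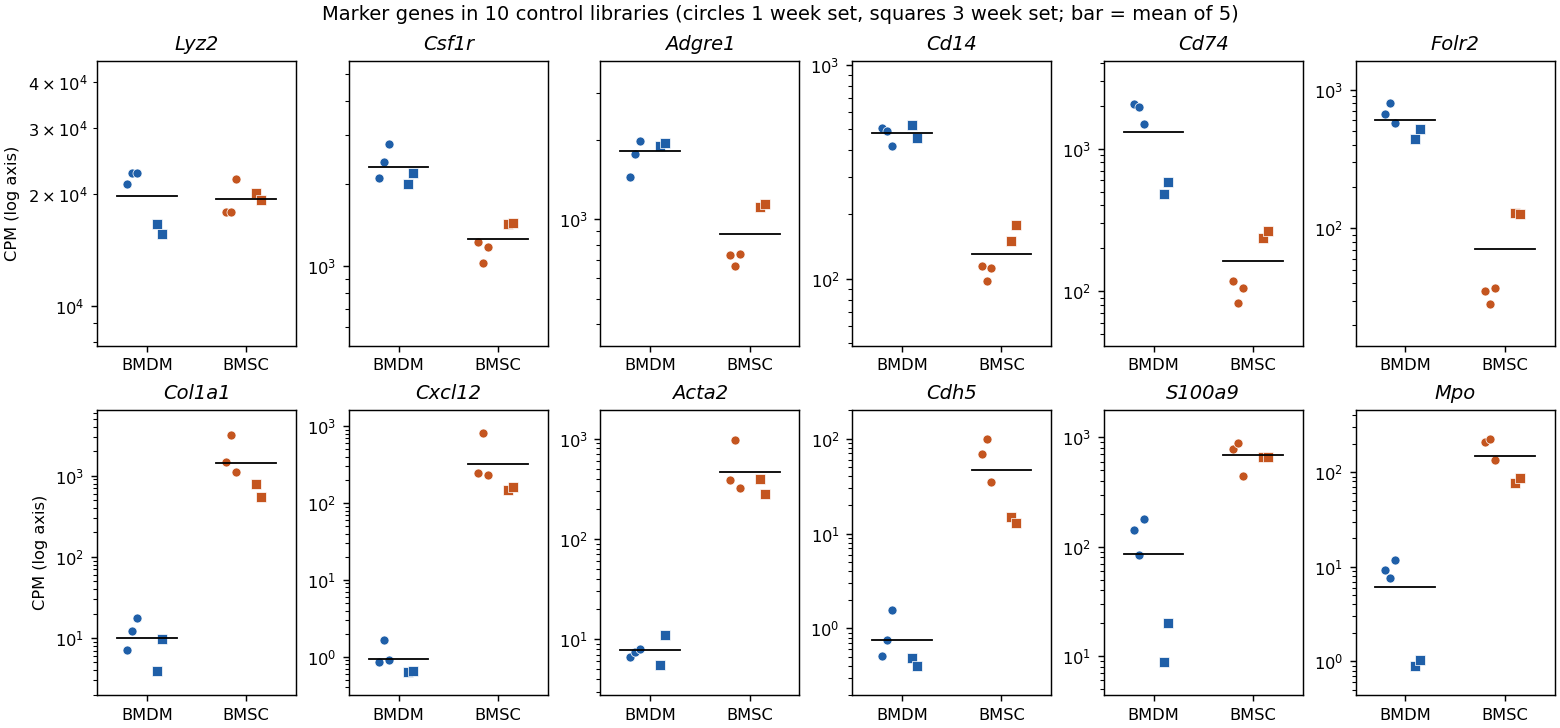
Level in CPM (log axis) of 12 marker genes in each control library, circles for the 1 week set, squares for the 3 week set, bars for the mean of the 5 libraries of a type. Lyz2 overlaps between the types, the other macrophage genes are higher in BMDM, and the stromal, endothelial and neutrophil genes are higher in every BMSC library.

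The label of the BMDM libraries was matched by their markers, whereas BMSC libraries carried both a stromal and a macrophage profile. Of 16 macrophage markers, 15 passed the count filter. Of these, 7 were higher in BMDM, 2 higher in BMSC and 6 not called, with a median log2 fold change of 0.64. At 1 week 9 were higher in BMDM and 2 in BMSC (median 0.86), and at 3 weeks 3 and 2 (median 0.09). Over all genes tested 20.1% were higher in BMDM and 24.2% in BMSC, and a list whose counts lie near these shares does not stand apart. Their summed level was 36469 to 46906 CPM in BMDM and 30054 to 37716 CPM in BMSC. Of 18 stromal markers, all tested, 17 were higher in BMSC and 1 in BMDM (median -4.57), and their summed level was 201 to 447 CPM in BMDM and 2018 to 10359.7 CPM in BMSC. The exception was Eng, which encodes the TGF-beta co-receptor endoglin and stood at 67.4 ± 4.29 CPM in BMDM against 48.01 ± 9.36 in BMSC (SD, n = 5 each, log2 fold change 0.66 ± 0.12, edgeR adjusted p = 0.0012). Stromal markers such as Lepr (1 count in all BMDM libraries, 329 in all BMSC libraries) and Adipoq (2 and 68) passed the count filter only through BMSC. The direction of such members was fixed by the filter.

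Within the macrophage list the largest difference towards BMDM was in Cd14, the lipopolysaccharide co-receptor gene, with 506, 494 and 419 CPM in 1 week BMDM, 521 and 455 in 3 week BMDM, 115, 97.3 and 112 in 1 week BMSC, and 149.5 and 179 in 3 week BMSC. All BMDM libraries exceeded all BMSC libraries (log2 fold change 2.06 ± 0.16, edgeR adjusted p = 2.01e-06). Ctss, the cathepsin S gene of antigen processing, was at 11931 ± 2214 CPM in BMDM against 7214 ± 1092 in BMSC (0.87 ± 0.19, adjusted p = 0.00368). Fcer1g, the signalling chain of Fc receptors, was at 705 ± 45.2 CPM in BMDM against 449.7 ± 115 in BMSC (0.83 ± 0.16, adjusted p = 0.00183). Markers did not all lean one way. Cx3cr1, the fractalkine receptor gene of monocytes and resident macrophages, was higher in BMSC at 9.38 ± 2.16 CPM in BMDM against 37.1 ± 10.9 in BMSC (-1.83 ± 0.18, adjusted p = 1.26e-05), as was Mertk, a gene for a receptor of apoptotic cells (-0.63 ± 0.18, adjusted p = 0.0144). Mrc1, the mannose receptor gene, was at 482 ± 142 CPM in BMDM against 557 ± 67.1 in BMSC and was not called (-0.07 ± 0.16, adjusted p = 0.757).

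PU.1, encoded by Spi1, is the transcription factor that sets up macrophage gene expression, and it binds purine-rich sites with the core GAGGAA. Spi1 itself was at 352 ± 26.96 CPM in BMDM against 229.6 ± 57.8 in BMSC (0.79 ± 0.15, adjusted p = 0.00147). Among the 10 macrophage marker genes with a RefSeq start window (250 bases before to 50 after the start, GRCm38.p6), 6 held GAGGAA on either strand, whereas 28.3% of all 32851 windows did. The 4 genes with more than 1 match are shown, Mrc1 and Itgam with 3 each and Ctss and Cd68 with 2 each. Mrc1, which was not called, is described above. Itgam and Cd68 were chosen after their values were seen. Itgam, the integrin gene of the complement receptor CD11b, was at 1147 ± 244 CPM in BMDM against 1617 ± 295 in BMSC and not called (-0.35 ± 0.16, adjusted p = 0.0999). Cd68, which encodes a lysosomal membrane protein of macrophages, stood at 1569 ± 86.3 CPM in BMDM against 1098 ± 204 in BMSC (0.68 ± 0.14, adjusted p = 0.00266). The windows are chr2:14229164-14229463, + strand, chr7:128062390-128062689, + strand, chr3:95526536-95526835, + strand, and chr11:69666121-69666420, - strand, written 5′ to 3′ along the gene with the matches in capitals (TTCCTC is the same core on the other strand).
Mrc1: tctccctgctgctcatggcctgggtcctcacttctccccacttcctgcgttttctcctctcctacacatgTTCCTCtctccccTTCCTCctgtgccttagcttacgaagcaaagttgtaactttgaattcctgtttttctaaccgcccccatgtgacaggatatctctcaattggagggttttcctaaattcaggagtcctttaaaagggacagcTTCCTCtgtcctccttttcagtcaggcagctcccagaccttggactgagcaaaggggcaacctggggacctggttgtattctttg
Itgam: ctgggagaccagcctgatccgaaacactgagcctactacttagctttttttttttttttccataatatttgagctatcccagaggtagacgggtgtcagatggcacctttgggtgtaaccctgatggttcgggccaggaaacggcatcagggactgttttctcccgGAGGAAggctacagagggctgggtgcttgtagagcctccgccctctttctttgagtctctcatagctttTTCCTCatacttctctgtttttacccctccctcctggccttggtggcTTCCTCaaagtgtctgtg
Ctss: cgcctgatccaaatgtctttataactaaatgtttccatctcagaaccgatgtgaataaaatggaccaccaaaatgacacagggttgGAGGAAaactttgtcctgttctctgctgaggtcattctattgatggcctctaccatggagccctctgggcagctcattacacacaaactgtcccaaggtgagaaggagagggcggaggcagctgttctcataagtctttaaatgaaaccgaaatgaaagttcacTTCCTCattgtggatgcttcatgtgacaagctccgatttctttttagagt
Cd68: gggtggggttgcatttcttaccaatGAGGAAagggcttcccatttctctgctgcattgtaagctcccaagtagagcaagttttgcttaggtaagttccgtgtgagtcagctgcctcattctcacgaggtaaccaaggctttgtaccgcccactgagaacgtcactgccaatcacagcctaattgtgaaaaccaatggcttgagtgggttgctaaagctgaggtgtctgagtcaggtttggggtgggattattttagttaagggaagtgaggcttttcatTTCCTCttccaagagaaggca
Such a match is a description of the letters and not a mapped binding site.

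Of 13 Toll-like receptor and adaptor genes, all tested, 7 were higher in BMDM and none in BMSC (median 0.47, against 0.01 over all genes). In the 1 week set 9 were higher in BMDM and in the 3 week set 1. Tlr7, a sensor of single-stranded RNA, stood at 217, 271 and 445 CPM in 1 week BMDM, 212 and 206 in 3 week BMDM, 137, 126 and 96.7 in 1 week BMSC, and 161 and 159 in 3 week BMSC. Nothing overlapped, and the 3 week libraries of the types lay closer together than the 1 week ones (log2 fold change 1.14 ± 0.24, edgeR adjusted p = 0.00254). Tlr8 (0.88 ± 0.19, adjusted p = 0.00316), the lipopolysaccharide receptor gene Tlr4 (0.75 ± 0.13, adjusted p = 0.000909) and the adaptor gene Myd88 (0.49 ± 0.12, adjusted p = 0.00757) were also higher in BMDM, whereas Tlr13, which recognises bacterial ribosomal RNA in mice, was not called (0.02 ± 0.10, adjusted p = 0.887). Of 12 Fc and complement receptor genes, 6 were higher in BMDM and 2 in BMSC (median 0.36), a BMSC count that fell to 1 without 3 week BMDM replicate 1 or 2. At 1 week 7 were higher in BMDM and 2 in BMSC, and at 3 weeks 0 and 2. Fcgr4, an activating IgG receptor, was at 182 ± 48.3 CPM in BMDM against 93.8 ± 42.6 in BMSC (1.19 ± 0.33, adjusted p = 0.0132), with a log2 fold change of -0.00881 in the 3 week set fitted alone. Fcgr3, the gene of another IgG receptor, was at 987 ± 53.8 CPM in BMDM against 648 ± 76.7 in BMSC (0.76 ± 0.13, adjusted p = 0.00071). Vsig4, a complement receptor of tissue macrophages, went the other way at 2.42 ± 0.622 CPM in BMDM against 10.8 ± 3.79 in BMSC (-1.95 ± 0.24, adjusted p = 6.11e-05).

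Lysosomal genes were higher in BMDM in 13 of 20 cases and in BMSC in none, with a median of 0.46. At 1 week 15 were higher in BMDM and none in BMSC (median 0.62), and at 3 weeks 3 and 1 (median 0.18). Lamp2, which encodes a lysosomal membrane protein, was at 1127 ± 27.7 CPM in BMDM against 735 ± 54.5 in BMSC (log2 fold change 0.77 ± 0.10, edgeR adjusted p = 9.47e-05). The glucuronidase gene Gusb was at 1052 ± 128 CPM in BMDM against 662 ± 80.2 in BMSC (0.81 ± 0.14, adjusted p = 0.000851). Atp6v0d2, a subunit of the proton pump, was at 852 ± 36.6 CPM in BMDM against 577 ± 44.6 in BMSC (0.72 ± 0.09, adjusted p = 9.60e-05). Tfeb, the transcription factor gene of lysosome biogenesis, was higher in BMDM (0.82 ± 0.16, adjusted p = 0.00167). Ctsd, the cathepsin D gene, was at 15472 ± 831 CPM in BMDM against 14733 ± 1954 in BMSC and was not called (0.22 ± 0.15, adjusted p = 0.251). The differences were small enough for the count to be fragile: 7 genes were called without 1 week BMSC replicate 1, and scaling by library total alone gave 10 higher in BMDM and 2 in BMSC.

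Of 13 genes of lipid-associated macrophages, 8 were higher in BMDM and 2 in BMSC (median 0.44), and 5 were higher in BMDM without 1 week BMDM replicate 1, as without replicate 2. At 1 week 8 were higher in BMDM and 2 in BMSC, and at 3 weeks 1 and 3. Abcg1, a cholesterol export pump, stood at 427, 479 and 437 CPM in 1 week BMDM, 378 and 416 in 3 week BMDM, 186, 138 and 200.3 in 1 week BMSC, and 205 and 218 in 3 week BMSC. Its BMDM libraries all exceeded its BMSC libraries (log2 fold change 1.33 ± 0.15, edgeR adjusted p = 4.29e-05). Trem2, a lipid-sensing receptor gene, was at 1022 ± 129.7 CPM in BMDM against 599.8 ± 147 in BMSC (0.95 ± 0.19, adjusted p = 0.00183). Lgals3, which encodes galectin-3, was at 6205 ± 945 CPM in BMDM against 3881 ± 915 in BMSC (0.84 ± 0.21, adjusted p = 0.00709). Spp1, the osteopontin gene that macrophages and osteoblasts both express, was higher in BMSC at 3628 ± 1224 CPM in BMDM against 9033 ± 1448 in BMSC (-1.195 ± 0.17, adjusted p = 0.00019), and so was the fatty acid binding protein gene Fabp5 (-0.64 ± 0.15, adjusted p = 0.00428).

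Antigen presentation gave the largest list median towards BMDM. All 6 class II genes tested of 7 were higher in BMDM, with a median of 2.87. Cd74, the invariant chain gene that escorts class II molecules, stood at 2057, 1974 and 1495 CPM in 1 week BMDM, 484 and 579.99 in 3 week BMDM, 119, 82.7 and 105 in 1 week BMSC, and 237 and 265 in 3 week BMSC. Every BMDM library was above every BMSC library, and within BMDM the 1 week libraries were well above the 3 week ones (log2 fold change 3.16 ± 0.58, edgeR adjusted p = 0.00107). Ciita, the master activator of class II transcription, was at 36.4 ± 19.8 CPM in BMDM against 5.36 ± 1.35 in BMSC (2.78 ± 0.34, adjusted p = 5.88e-05). The class II chain genes themselves had few counts: H2-Aa was at 3.02 ± 2.02 CPM in BMDM against 0.378 ± 0.172 in BMSC (2.97 ± 0.53, adjusted p = 0.000898). H2-Eb1 was at 1.83 ± 0.999 CPM in BMDM against 0.2004 ± 0.09703 in BMSC (3.29 ± 0.52, adjusted p = 0.000415). Tnf and the untested macrophage marker Aif1, in the same chromosome 17 region, were listed at 0 in every library, and whether the H2 genes are counted completely was not tested.

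Osteoclasts are bone-resorbing cells that form by fusion of the same precursors, and 5 of their 14 genes tested were higher in BMDM and 3 in BMSC, where 44.3% of all genes were called (median 0.15, and 0.00 with library totals alone). Dcstamp, the gene of a membrane protein needed for that fusion, stood at 188, 154 and 126 CPM in 1 week BMDM, 135 and 119 in 3 week BMDM, 30.7, 15.4 and 30.4 in 1 week BMSC, and 22.3 and 26.1 in 3 week BMSC. All BMDM values were several times all BMSC values (log2 fold change 2.67 ± 0.22, edgeR adjusted p = 2.90e-06). Acp5, which encodes the osteoclast phosphatase TRAP, went the other way at 39.6 ± 6.98 CPM in BMDM against 164 ± 11.996 in BMSC (-1.91 ± 0.14, adjusted p = 1.52e-06), as did the integrin gene Itgb3 (-1.66 ± 0.16, adjusted p = 1.19e-05). Ctsk, which encodes a collagen-cleaving cathepsin, was higher in BMDM at 114 ± 8.44 CPM in BMDM against 80.3 ± 17.7 in BMSC (0.67 ± 0.11, adjusted p = 0.000502).

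Of 10 genes of alternative activation tested, 3 were higher in BMDM and 4 in BMSC (median 0.06, and -0.10 with library totals alone). Folr2, the folate receptor gene of tissue macrophages, stood at 665, 805 and 579 CPM in 1 week BMDM, 443 and 519 in 3 week BMDM, 35.4, 28.4 and 36.9 in 1 week BMSC, and 129 and 127 in 3 week BMSC. Nothing overlapped, and BMSC of the 3 week set had several times the level of the 1 week set (log2 fold change 3.55 ± 0.46, edgeR adjusted p = 8.99e-05). Arg1, the arginase gene, was scarce at 0.156 ± 0.06598 CPM in BMDM against 1.83 ± 0.920002 in BMSC and higher in BMSC (-3.33 ± 0.37, adjusted p = 3.00e-05), and Il4ra, the interleukin 4 receptor gene, was higher in BMSC too (-0.60 ± 0.11, adjusted p = 0.00114). Among 12 chemokine genes of macrophages 4 were higher in BMDM and 5 in BMSC (median 0.43): Ccl6 was at 911 ± 125 CPM in BMDM against 355 ± 75.9 in BMSC (1.496 ± 0.16, adjusted p = 2.52e-05). Ccl9 was at 981 ± 105 CPM in BMDM against 563 ± 108 in BMSC (0.95 ± 0.16, adjusted p = 0.000715). By contrast, the monocyte attractant gene Ccl7 was at 4.61 ± 1.26 CPM in BMDM against 28.3 ± 3.29 in BMSC (-2.49 ± 0.11, adjusted p = 1.52e-07).

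Of 19 haematopoietic transcription factor genes 7 were higher in BMDM and 2 in BMSC (median 0.20), where 44.3% of all genes tested were called. At 1 week 11 were higher in BMDM and 2 in BMSC (median 0.39), and at 3 weeks 1 and 2 (median 0.08). Beside Spi1, the melanocyte and osteoclast factor gene Mitf (0.69 ± 0.09, adjusted p = 0.000141), Klf4 (0.69 ± 0.11, adjusted p = 0.000469) and Irf8, a factor of monocyte fate (0.62 ± 0.12, adjusted p = 0.0017), were higher in BMDM. The 2 genes higher in BMSC belong to other haematopoietic stages. Myb, a factor of proliferating progenitors, was at 1.51 ± 1.38 CPM in BMDM against 16.02 ± 7.55 in BMSC (-3.42 ± 0.36, adjusted p = 1.77e-05). Gfi1, a factor of granulocyte precursors, was at 0.486 ± 0.494 CPM in BMDM against 6.49 ± 2.21 in BMSC (-3.702 ± 0.41, adjusted p = 2.68e-05).

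The 12 genes with the largest difference towards BMDM, among called genes at 5 CPM or more in BMDM without overlap, had log2 fold changes from 2.51 to 4.34. Fxyd2, which encodes a regulatory subunit of the sodium pump (chromosome 9, 45399669 to 45410278), stood at 14.5, 21.7 and 20.1 CPM in 1 week BMDM, 4.57 and 5.21 in 3 week BMDM, 0.392, 1.04 and 0.924 in 1 week BMSC, and 0.123 and 0.871 in 3 week BMSC. BMSC libraries stayed at or under 1.04 CPM and the 3 week BMDM libraries were below the 1 week ones (log2 fold change 4.34 ± 0.40, edgeR adjusted p = 7.16e-06). Cd72, a receptor gene of B cells and macrophages, stood at 841, 761 and 613 CPM in 1 week BMDM, 614 and 621 in 3 week BMDM, 97.6, 47.8 and 80.2 in 1 week BMSC, and 277 and 288 in 3 week BMSC. The 3 week BMSC libraries carried more of it than the 1 week ones, still below all BMDM (log2 fold change 2.601 ± 0.42, edgeR adjusted p = 0.000502). Dpys, which encodes a pyrimidine-degrading enzyme (3.78 ± 0.41, adjusted p = 2.68e-05), the lipid transporter gene Abca6 (3.36 ± 0.26, adjusted p = 1.89e-06), the transcription factor gene Tox2 (3.31 ± 0.44, adjusted p = 0.000109), the orphan receptor gene Gprc5c (2.96 ± 0.17, adjusted p = 3.96e-07) and the betaine transporter gene Slc6a12 (2.94 ± 0.27, adjusted p = 7.60e-06) were the others beside Cd74, Ciita, Folr2, Dcstamp and L1cam, an adhesion molecule gene (2.51 ± 0.21, adjusted p = 3.78e-06).

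On the stromal side, collagen chain genes had the largest list median, with 16 of 17 higher in BMSC and none in BMDM (median -6.23). Col1a2, the second chain of type I collagen, stood at 9.97, 19.3 and 20.4 CPM in 1 week BMDM, 6.73 and 15.04 in 3 week BMDM, 1569, 3542 and 1226 in 1 week BMSC, and 899 and 688 in 3 week BMSC. The BMSC libraries were all far higher, 1 week replicate 2 the most (log2 fold change -6.51 ± 0.39, edgeR adjusted p = 5.01e-07). Col5a1, a chain of the fibril-seeding type V collagen, was at 2.43 ± 0.745 CPM in BMDM against 312 ± 249.7 in BMSC (-6.67 ± 0.37, adjusted p = 3.92e-07). Col6a1, of the microfibrillar type VI collagen, was at 5.36 ± 1.91 CPM in BMDM against 523 ± 263 in BMSC (-6.37 ± 0.37, adjusted p = 4.37e-07). Enzymes that fold, trim and crosslink collagen followed, 15 of 17 higher in BMSC (median -4.47). The collagen chaperone gene Serpinh1 was at 6.16 ± 1.78 CPM in BMDM against 482 ± 277 in BMSC (-6.07 ± 0.33, adjusted p = 3.92e-07). The crosslinking enzyme gene Loxl2 was at 0.631 ± 0.267 CPM in BMDM against 76.8 ± 57.7 in BMSC (-6.67 ± 0.37, adjusted p = 3.92e-07). The procollagen protease gene Adamts2 was at 0.743 ± 0.412 CPM in BMDM against 63.4 ± 29.97 in BMSC (-6.19 ± 0.34, adjusted p = 3.92e-07). The lone enzyme gene called higher in BMDM, the lysyl hydroxylase gene Plod3 (0.34 ± 0.11, adjusted p = 0.0217), lost its call without 1 week BMDM replicate 1 (adjusted p = 0.0541), 1 week BMDM replicate 2 (0.0601) or 1 week BMSC replicate 1 (0.063).

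Matrix glycoproteins and proteoglycans were higher in BMSC in 21 of 22 cases and in BMDM in none (median -5.16). Fn1, the fibronectin gene, stood at 33.3, 31.3 and 48.1 CPM in 1 week BMDM, 61.5 and 72.1 in 3 week BMDM, 1583, 3517 and 1249.7 in 1 week BMSC, and 917 and 713 in 3 week BMSC. No library of the types overlapped (log2 fold change -4.78 ± 0.44, edgeR adjusted p = 7.54e-06). Sparc, a collagen-binding protein gene of bone, was at 11.6 ± 3.897 CPM in BMDM against 927 ± 599 in BMSC (-6.04 ± 0.36, adjusted p = 4.96e-07). The proteoglycan gene Bgn was at 13.9 ± 4.13 CPM in BMDM against 582 ± 272 in BMSC (-5.19 ± 0.30, adjusted p = 4.64e-07). The laminin chain gene Lama4 was at 0.289 ± 0.155 CPM in BMDM against 46.7 ± 30.4 in BMSC (-7.13 ± 0.30, adjusted p = 1.52e-07). Among 18 matrix proteases and inhibitors 13 were higher in BMSC and 2 in BMDM (median -2.79). Mmp14, the membrane-bound collagenase gene, was at 27.1 ± 11.3 CPM in BMDM against 432 ± 58.6 in BMSC (-3.91 ± 0.27, adjusted p = 9.78e-07). Timp2, an inhibitor of these proteases, was higher in BMDM with Ctsk (0.79 ± 0.10, adjusted p = 7.67e-05). Mmp12, the elastase gene of macrophages, was at 8481 ± 996 CPM in BMDM against 9058 ± 1047 in BMSC and not called (0.05 ± 0.14, adjusted p = 0.778).

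Contractile genes and targets of YAP, the coactivator that responds to stretch and cell density, were higher in BMSC in all 17 cases tested (median -4.52). The count was 15 to 17 on leaving out single libraries, and 15 at 3 weeks. Flna (-0.63, edgeR adjusted p = 0.0424) lost its call on leaving out any single 1 week library. In the 3 week set fitted alone the log2 fold change of Flna was 0.12. Acta2, the smooth muscle actin gene, stood at 6.697, 7.52 and 8.06 CPM in 1 week BMDM, 5.55 and 11.02 in 3 week BMDM, 385, 965 and 319.9 in 1 week BMSC, and 395 and 279 in 3 week BMSC. Again the groups did not overlap (log2 fold change -5.701 ± 0.35, edgeR adjusted p = 5.53e-07). Ctgf, a YAP target gene, was at 3.89 ± 1.51 CPM in BMDM against 256 ± 111 in BMSC (-5.85 ± 0.33, adjusted p = 3.92e-07). Cav1, which encodes caveolin, was at 1.22 ± 0.441 CPM in BMDM against 31.5 ± 18.9 in BMSC (-4.498 ± 0.27, adjusted p = 5.01e-07). Of 14 junction and adhesion genes 10 were higher in BMSC and 1 in BMDM (median -1.95): the osteoblast cadherin gene Cdh11 was at 2.77 ± 0.7698 CPM in BMDM against 112 ± 70.9 in BMSC (-5.08 ± 0.32, adjusted p = 5.99e-07). The gap junction gene Gja1 was at 1.63 ± 0.5304 CPM in BMDM against 72.2 ± 52.1 in BMSC (-5.17 ± 0.38, adjusted p = 1.52e-06). By contrast, Alcam, an adhesion gene, was at 586 ± 18.2 CPM in BMDM against 328 ± 33.97 in BMSC (0.99 ± 0.11, adjusted p = 2.15e-05).

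Positional and lineage regulators of mesenchyme were on the BMSC side as well. Of 25 mesenchymal transcription factor genes 22 passed the count filter, and 20 of these were higher in BMSC and none in BMDM (median -4.57). Prrx1, a factor of limb and skeletal mesenchyme, was at 3.23 ± 1.03 CPM in BMDM against 92.05 ± 47.98 in BMSC (-4.63 ± 0.30, adjusted p = 7.21e-07). Snai2, a factor of mesenchymal transition, was at 0.306 ± 0.142 CPM in BMDM against 20.1 ± 12.7 in BMSC (-5.84 ± 0.37, adjusted p = 6.40e-07). Zeb2, a member that macrophages use as well, was at 387 ± 46.5 CPM in BMDM against 399 ± 59.4 in BMSC and not called (0.12 ± 0.11, adjusted p = 0.403). Of 32 Hox, Meis and Pbx genes, 20 passed the filter and 19 were higher in BMSC (median -4.27), led by scarce transcripts such as Hoxa10 at 0.0718 ± 0.0615 CPM in BMDM against 4.104 ± 2.22 in BMSC (-5.57 ± 0.43, adjusted p = 2.02e-06). Hoxc9 was at 0.0407 ± 0.0229 CPM in BMDM against 1.09 ± 0.477 in BMSC (-4.52 ± 0.52, adjusted p = 4.09e-05). Imprinted growth genes were higher in BMSC in 8 of 10 tested and in BMDM in none (median -3.53), with the growth factor receptor adaptor gene Grb10 at 1.39 ± 0.358 CPM in BMDM against 80.4 ± 57.4 in BMSC (-5.59 ± 0.38, adjusted p = 9.52e-07). Some of these genes, and of the Wnt, niche, osteoblast, chondrocyte and vessel lists, reached the filter through BMSC alone, so the counts describe only the genes that could be tested.

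Wnt signals steer mesenchymal cells towards bone, and 15 of 16 genes of this pathway tested were higher in BMSC (median -4.17). The ligand gene Wnt5a was at 0.139 ± 0.0948 CPM in BMDM against 12.8 ± 7.23 in BMSC (-6.36 ± 0.42, adjusted p = 8.17e-07). The receptor gene Fzd2 was at 0.114 ± 0.0593 CPM in BMDM against 5.55 ± 3.33 in BMSC (-5.31 ± 0.42, adjusted p = 2.60e-06). The secreted modulator gene Dkk3 was at 0.276 ± 0.161 CPM in BMDM against 38.9 ± 24.9 in BMSC (-6.91 ± 0.45, adjusted p = 7.20e-07). Sfrp1, which encodes a secreted Wnt inhibitor, had 2 counts over all BMDM libraries against 643 over all BMSC libraries, a depth-scaled ratio of 302 (95% interval from counting error 83.4 to 2502). The exception, the antagonist gene Dkk2, stood at 4.93, 7.08 and 6.804 CPM in 1 week BMDM, 2.702 and 2.23 in 3 week BMDM, 0.927, 1.37 and 0.423 in 1 week BMSC, and 0.858 and 0.40997 in 3 week BMSC. It was higher in BMDM without overlap (log2 fold change 2.69 ± 0.32, edgeR adjusted p = 5.22e-05).

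Descendants of mesenchymal cells were represented unevenly. Of 14 osteoblast genes 9 were tested and 8 were higher in BMSC (median -5.09), among them Alpl, the bone alkaline phosphatase gene, at 0.202 ± 0.0712 CPM in BMDM against 7.99 ± 2.38 in BMSC (-5.09 ± 0.29, adjusted p = 4.32e-07) and Sparc given above. Ibsp, which encodes bone sialoprotein, had 1 count over all BMDM libraries against 272 over all BMSC libraries, a depth-scaled ratio of 256 (95% interval from counting error 45.5 to 10141). Of 8 chondrocyte genes 4 were tested and 3 were higher in BMSC, such as Col2a1 at 0.272 ± 0.286 CPM in BMDM against 8.14 ± 5.36 in BMSC (-4.88 ± 0.38, adjusted p = 2.01e-06). Of 12 adipocyte markers 7 were tested, 3 higher in BMSC and 2 in BMDM, or 1 in BMDM without 1 week BMDM replicate 1 or 2. Macrophages express several of these as well, such as Pparg, the gene of a lipid-sensing nuclear receptor, at 99.02 ± 8.91 CPM in BMDM against 57.9 ± 4.98 in BMSC (0.93 ± 0.12, adjusted p = 6.93e-05). Adipoq, the fat cell hormone gene, had 2 counts over all BMDM libraries against 68 over all BMSC libraries, a depth-scaled ratio of 31.98 (95% interval from counting error 8.52 to 269).

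The 12 genes with the largest difference towards BMSC, by the same rule, had log2 fold changes from -7.70 to -10.06. These values, so near 0 in BMDM, depend on the prior count of the fit. Of the 12 genes, 8 had at most 3 counts in all BMDM libraries together. Those 8 passed the count filter only through BMSC, so their direction was fixed by the filter. Heyl, a Notch target gene of vessel wall cells (chromosome 4, 123233556 to 123249875), stood at 0.03204, 0 and 0 CPM in 1 week BMDM, 0 and 0 in 3 week BMDM, 20.1, 46.9996 and 13.3 in 1 week BMSC, and 3.86 and 2.204 in 3 week BMSC, that is 1 count over all BMDM libraries against 2283 over all BMSC libraries, a depth-scaled ratio of 2147 (95% interval from counting error 385 to 84845). Lama1, a laminin chain gene, had 1 count over all BMDM libraries against 1107 over all BMSC libraries, a depth-scaled ratio of 1041 (95% interval from counting error 186 to 41159). Mme, which encodes the peptidase CD10, had 3 counts over all BMDM libraries against 2094 over all BMSC libraries, a depth-scaled ratio of 656 (95% interval from counting error 224 to 3186). Within BMSC these genes were highest in 1 week replicate 2. Igfbp5, an IGF binding protein gene of bone, stood at 0.0961, 0.0545 and 0.454 CPM in 1 week BMDM, 0.196 and 1.14 in 3 week BMDM, 174, 606 and 112 in 1 week BMSC, and 18.9 and 19.2 in 3 week BMSC, with the 3 week BMSC libraries lowest of that type (log2 fold change -8.29 ± 0.97, edgeR adjusted p = 4.58e-05), and the collagen chain gene Col5a3 behaved alike (-7.92 ± 0.54, adjusted p = 9.90e-07). The others were Itga11, a collagen receptor gene (-9.23 ± 0.79, adjusted p = 4.01e-06), Pappa, which encodes a protease of IGF binding proteins (ratio 782, counting interval 267 to 3795), Fibin (809, 145 to 31984) and the Wnt inhibitor gene Sfrp4 (557, 154 to 4603), beside Cxcl12 and Sfrp1. Igkv1-88, an immunoglobulin segment, rested on 1 library, at 28.1 CPM in 1 week BMSC replicate 2 and at most 1.47 CPM elsewhere, and its log2 fold change went from -7.87 to -4.85 without that library. With single libraries left out, the fitted log2 value ran from -9.86 to -7.42 for Igfbp5, from -10.04 to -8.44 for Itga11 and from -8.62 to -7.53 for Col5a3, all still called.

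**Figure D3:**
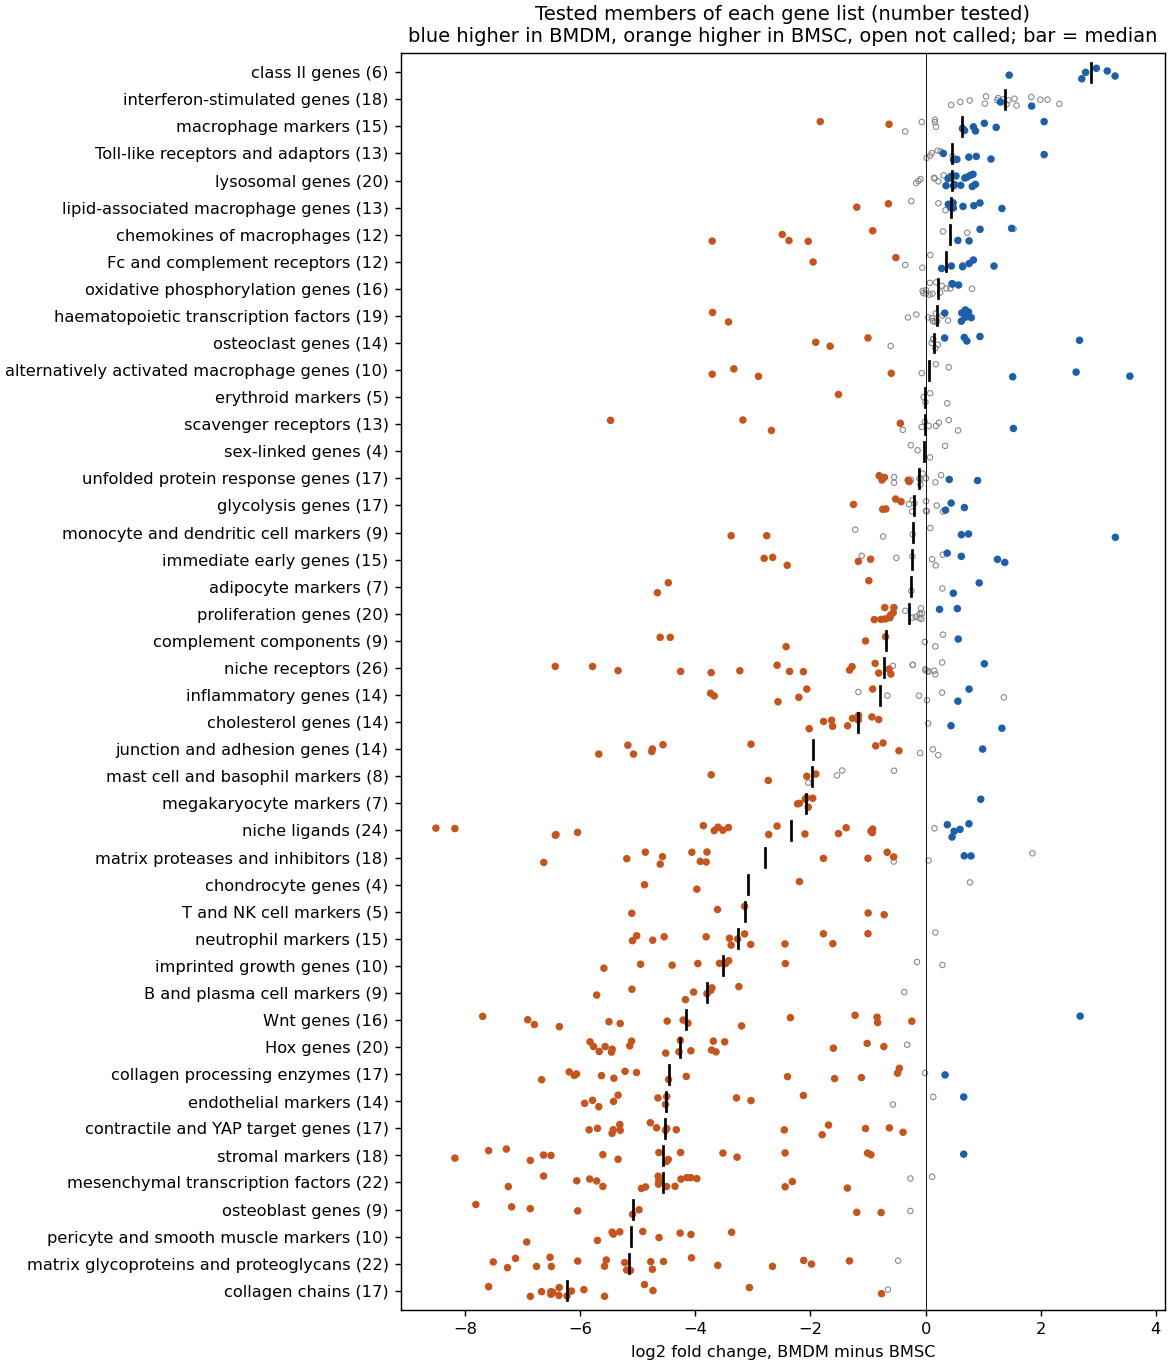
Log2 fold change (BMDM minus BMSC, horizontal axis) of the tested members of each gene list with at least 4 tested genes, 1 point per gene, blue for genes called higher in BMDM, orange for genes called higher in BMSC, open for genes not called, bars for the list median. Collagen, matrix, pericyte, mesenchymal and endothelial lists lie far to the left, whereas macrophage lists stay near zero and class II genes lie furthest to the right.

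Marrow niche signals pass between the cell types, so ligand and receptor genes were read together. Of 26 ligand genes 24 were tested, 18 higher in BMSC and 5 in BMDM (median -2.34), and of 26 receptor genes, all tested, 15 were higher in BMSC and 1, Csf1r, in BMDM (median -0.72). Without 1 week BMSC replicate 2 the receptors higher in BMDM numbered 2. Csf1, the ligand of CSF1R, stood at 8.36, 9.54 and 17.1 CPM in 1 week BMDM, 10.6 and 12.7 in 3 week BMDM, 115, 174 and 93.1 in 1 week BMSC, and 173 and 149 in 3 week BMSC. Ligand and receptor thus lay on opposite sides, the ligand higher in every BMSC library (log2 fold change -3.42 ± 0.22, edgeR adjusted p = 6.62e-07) and the receptor in every BMDM library.

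Kit, the stem cell factor receptor gene of progenitors and mast cells, was at 1.11 ± 0.535 CPM in BMDM against 17.1 ± 10.1 in BMSC (log2 fold change -3.72 ± 0.23, edgeR adjusted p = 6.03e-07). Among genes chosen after their values were seen, its ligand gene Kitl was at 17.01 ± 4.41 CPM in BMDM against 37.9 ± 18.7 in BMSC (-0.95 ± 0.24, adjusted p = 0.00756). Cxcr4, a receptor gene for CXCL12, was at 75.6 ± 26.1 CPM in BMDM against 81.1 ± 9.14 in BMSC and not called (adjusted p = 0.99), so Cxcl12 differed widely while Cxcr4 did not pass the test. Ackr3, the listed gene of another CXCL12 receptor, had 2 counts over all BMDM libraries against 313 over all BMSC libraries. The depth-scaled ratio was 147 (95% interval from counting error 40.4 to 1221). Ackr3 passed the count filter only through BMSC, so its direction was fixed by the filter. Tnfsf11, the gene of the osteoclast-forming ligand RANKL, was also chosen after its values were seen. It had no count in any BMDM library and 274 over the BMSC libraries. That was at least 85.9-fold higher in BMSC against a floor of 3 counts over the BMDM group. Tnfsf11 too passed the count filter only through BMSC, so its direction was fixed by the filter. Its decoy receptor gene Tnfrsf11b was at 0.217 ± 0.199 CPM in BMDM against 15.7 ± 9.07 in BMSC (-6.05 ± 0.55, adjusted p = 6.89e-06). Its receptor gene Tnfrsf11a was at 101 ± 13.8 CPM in BMDM against 98.8 ± 11.1 in BMSC and not called (0.17 ± 0.10, adjusted p = 0.188).

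Growth factors divided by gene. Tgfb2, a ligand of mesenchymal growth control, was at 0.225 ± 0.156 CPM in BMDM against 23.8 ± 16.9 in BMSC (log2 fold change -6.42 ± 0.43, edgeR adjusted p = 8.31e-07). Igf1, Hgf and Pros1 were higher in BMDM. Igf1 was at 828 ± 104 CPM in BMDM against 683 ± 177 in BMSC (0.46 ± 0.11, adjusted p = 0.00697). The liver cell growth factor gene Hgf was at 27.5 ± 5.97 CPM in BMDM against 18.3 ± 4.04 in BMSC (0.75 ± 0.15, adjusted p = 0.00188). Pros1, a ligand of MERTK, was at 98.01 ± 6.37 CPM in BMDM against 72.8 ± 11.7 in BMSC (0.60 ± 0.09, adjusted p = 0.000241). Their receptors went the other way: Igf1r, for IGF1, was at 17.5 ± 2.77 CPM in BMDM against 48.4 ± 15.1 in BMSC (-1.28 ± 0.11, adjusted p = 4.02e-06), Met, for HGF, at 16.4 ± 1.603 CPM in BMDM against 109 ± 10.8 in BMSC (-2.58 ± 0.11, adjusted p = 1.52e-07), and Mertk was higher in BMSC as given above. The platelet growth factor receptor genes Pdgfra (-4.26 ± 0.36, adjusted p = 3.53e-06) and Pdgfrb (-5.34 ± 0.40, adjusted p = 1.84e-06) were higher in BMSC as well.

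Markers of further marrow cells were measured because neither culture is described as sorted. Their part in the differences between the types was not tested. Neutrophil markers, 15 genes, were higher in BMSC in 14 cases and in BMDM in none (median -3.27), with summed levels of 219 to 803 CPM in BMDM and 2127 to 3577 CPM in BMSC. S100a9, a calcium-binding protein gene of neutrophils, stood at 143, 83.3 and 178 CPM in 1 week BMDM, 8.79 and 19.9 in 3 week BMDM, 784, 888 and 445 in 1 week BMSC, and 663 and 656 in 3 week BMSC. BMSC libraries were above all BMDM libraries, and the 3 week BMDM libraries were below the 1 week ones (log2 fold change -3.38 ± 0.62, edgeR adjusted p = 0.00106). Mpo, the myeloperoxidase gene of granulocyte precursors, stood at 9.23, 7.58 and 11.8 CPM in 1 week BMDM, 0.884 and 1.04 in 3 week BMDM, 208, 227 and 136 in 1 week BMSC, and 77.1 and 88.1 in 3 week BMSC. The same order was seen (log2 fold change -4.74 ± 0.36, edgeR adjusted p = 1.96e-06). No neutrophil or endothelial marker was at 0 in all libraries of either type.

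Vessel-related genes were also on the BMSC side. Of 14 endothelial markers 11 were higher in BMSC and 1, Eng, in BMDM (median -4.51), with summed levels of 83.2 to 115 CPM in BMDM and 150.2 to 442 CPM in BMSC. Cdh5, the endothelial cadherin gene, stood at 0.513, 0.763 and 1.56 CPM in 1 week BMDM, 0.491 and 0.397 in 3 week BMDM, 68.8, 100.04 and 35.2 in 1 week BMSC, and 15.1 and 12.8 in 3 week BMSC. The types did not overlap, and the 3 week BMSC libraries were the lowest of their type (log2 fold change -5.68 ± 0.36, edgeR adjusted p = 6.47e-07). Emcn, the endomucin gene of marrow sinusoids, was at 0.423 ± 0.324 CPM in BMDM against 18.95 ± 12.2 in BMSC (-5.34 ± 0.30, adjusted p = 3.92e-07). All 10 pericyte and smooth muscle markers tested of 11 were higher in BMSC (median -5.11), with summed levels of 11.7 to 21.7 CPM in BMDM and 513 to 1747 CPM in BMSC. The list shares Acta2, Tagln, Cnn1 and Myl9 with the contractile genes. Mcam, which encodes the adhesion molecule CD146, was at 1.32 ± 0.301 CPM in BMDM against 50.4 ± 39.04 in BMSC (-4.91 ± 0.39, adjusted p = 2.32e-06).

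Lymphoid and other haematopoietic markers had low levels. Members such as Gzmb, a granule protease gene with 1 count in all BMDM libraries and 61 in all BMSC libraries, passed the count filter only through BMSC, so their direction was fixed by the filter. Of 11 B and plasma cell markers 9 were tested and 8 higher in BMSC, with summed levels of 5.16 to 8.37 CPM in BMDM and 35.5 to 79.5 CPM in BMSC; Pax5, the B cell identity factor gene, was at 0.103 ± 0.105 CPM in BMDM against 2.004 ± 0.951 in BMSC (log2 fold change -4.17 ± 0.49, edgeR adjusted p = 4.45e-05), and the list holds Ebf1, a factor that marrow stroma expresses too. Of 12 T and NK cell markers 5 were tested, and these were higher in BMSC over both sets, 2 at 1 week and 3 at 3 weeks. Their list had summed levels of 17.8 to 50.4 CPM in BMDM and 45.3 to 88.1 CPM in BMSC. Nkg7, a cytotoxic granule gene, was at 0.347 ± 0.346 CPM in BMDM against 4.36 ± 1.44 in BMSC (-3.61 ± 0.50, adjusted p = 0.000158). The listed Cd3g rested on 2 counts in all BMDM libraries and 26 in all BMSC libraries. Klrb1c lost its call without 1 week BMSC replicate 1 (edgeR adjusted p = 0.0512). Of 11 mast cell and basophil markers 8 were tested and 4 higher in BMSC, Kit and Hdc among them, or 2 without 1 week BMSC replicate 2. Of 9 megakaryocyte markers 7 were tested, 6 higher in BMSC and 1, the von Willebrand factor gene Vwf at 142 ± 31.2 CPM in BMDM against 80.9 ± 15.8 in BMSC (0.96 ± 0.15, adjusted p = 0.000461), in BMDM. Monocyte and dendritic cell markers gave 3 higher in BMDM and 2 in BMSC of 9 tested, with the inflammatory monocyte gene Ly6c2 at 6.46 ± 5.05 CPM in BMDM against 62.97 ± 14.2 in BMSC (-3.38 ± 0.54, adjusted p = 0.000421).

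Among growth and metabolic lists, cholesterol genes differed most. Of 14 genes 11 were higher in BMSC, all of them in synthesis, uptake or its control, and 2 in BMDM, the export pumps Abca1 (0.44 ± 0.13, adjusted p = 0.0143) and Abcg1 given above (median -1.17). Fdps, an enzyme of the shared isoprenoid path, stood at 32.4, 24.96 and 22.1 CPM in 1 week BMDM, 30.01 and 24.1 in 3 week BMDM, 115, 119.7 and 144 in 1 week BMSC, and 56.9 and 53.7 in 3 week BMSC. The 1 week BMSC libraries were the highest and the 3 week ones lay between these and BMDM (log2 fold change -1.62 ± 0.21, edgeR adjusted p = 9.63e-05). Idi1 (-1.77 ± 0.21, adjusted p = 5.23e-05), Fdft1 (-1.35 ± 0.16, adjusted p = 3.79e-05) and Insig1, a brake on the pathway (-0.93 ± 0.12, adjusted p = 0.000113), were higher in BMSC too. The sterol element TCACNCCAC, which SREBP binds, stood in the start window of 1 of the 7 cholesterol genes with a window and in 1.24% of all windows.

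Proliferation genes were higher in BMSC in 9 of 20 cases and in BMDM in 2 (median -0.29), with the mitotic gene Cdc20 at 12.1 ± 1.54 CPM in BMDM against 23.1 ± 3.78 in BMSC (log2 fold change -0.77 ± 0.11, edgeR adjusted p = 0.000219). The replication gene Mcm2 was at 25.4 ± 5.31 CPM in BMDM against 42.97 ± 4.14 in BMSC (-0.62 ± 0.10, adjusted p = 0.000611). Pcna, which encodes the replication clamp, was the other way at 622 ± 89.2 CPM in BMDM against 475 ± 86.7 in BMSC (0.55 ± 0.15, adjusted p = 0.0129), and the count higher in BMDM went to 1 on leaving out any 1 week library or 3 week BMSC replicate 1. Library totals alone gave 14 higher in BMSC and 1 in BMDM. Unfolded protein response genes, a theme of the series title, gave 5 higher in BMSC and 2 in BMDM of 17 (median -0.11, and 1 in BMDM without 1 week BMDM replicate 2). The disulfide isomerase gene Pdia6 was at 180.4 ± 13.9 CPM in BMDM against 340.4 ± 27.8 in BMSC (-0.76 ± 0.10, adjusted p = 0.000106). The chaperone gene Hyou1 was at 98.3 ± 13.3 CPM in BMDM against 179 ± 10.4 in BMSC (-0.71 ± 0.09, adjusted p = 7.29e-05). By contrast, Ddit3, which encodes the stress factor CHOP, was at 35.1 ± 2.61 CPM in BMDM against 21.4 ± 4.97 in BMSC (0.90 ± 0.14, adjusted p = 0.000438).

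Energy metabolism genes are given beside the all-gene shares of 20.1% higher in BMDM and 24.2% higher in BMSC. Of 16 oxidative phosphorylation genes 3 were higher in BMDM and none in BMSC (median 0.22), with 1 called without 1 week BMSC replicate 1, and library totals alone gave 3 and 2. Cox4i1, a cytochrome oxidase subunit gene, was at 402 ± 70.6 CPM in BMDM against 300.3 ± 31.97 in BMSC (log2 fold change 0.57 ± 0.16, edgeR adjusted p = 0.0122). Of 17 glycolysis genes 5 were higher in BMSC and 3 in BMDM (median -0.20), or 5 in BMDM without 1 week BMSC replicate 3. The isoforms of phosphofructokinase were on opposite sides, with Pfkl at 34.2 ± 2.56 CPM in BMDM against 90.9 ± 8.19 in BMSC (-1.25 ± 0.07, adjusted p = 4.96e-07). Pfkp was at 157 ± 13.6 CPM in BMDM against 109 ± 8.58 in BMSC (0.67 ± 0.09, adjusted p = 0.000137). Hk2, a hexokinase gene, was higher in BMSC (-0.74 ± 0.09, adjusted p = 6.08e-05).

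The last question was whether the cell types differed alike in both sets. In the fit with a group for each type and set, 7585 genes (51.1%) were called in the 1 week set, 3656 (24.6%) of them higher in BMDM. There were 2790 (18.8%) in the 3 week set, 761 (5.13%) of them higher in BMDM and 2029 (13.7%) higher in BMSC. The 4 groups of this fit share 1 estimate of the spread. Replicates differed by 5.10 (BMDM) and 4.30 (BMSC) times the counting variance at 3 weeks, and by 8.83 to 97.9 times at 1 week. Fitted alone, the 3 week set gave 2778 genes higher in BMDM and 3302 higher in BMSC of 13906 tested. The number of 3 week calls and their lean towards BMSC thus depended on the fit. The difference between the sets was called for 686 genes (4.62%), 193 (1.3%) with a higher and 493 (3.32%) with a lower BMDM-minus-BMSC value at 3 weeks. The 3 week count was 1460 without BMDM 3 week replicate 1, 1515 without replicate 2, and 1665 and 1694 without BMSC 3 week replicates 1 and 2, and it was 6080 when that set was fitted alone. The count for the difference rose to 2693 without 1 week BMDM replicate 3 and to 1171 without 1 week BMSC replicate 3. It was 429 without 1 week BMDM replicate 2, and 220 to 323 on leaving out any single 3 week library. With each set fitted alone, 5719 and 5988 of the 13664 genes tested in both were called, and 3723 in both, 65.1% and 62.2% of each list. Of these, 3496 had the same direction and 227 the opposite. Set and time in culture or treatment schedule cannot be told apart.

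**Figure D4:**
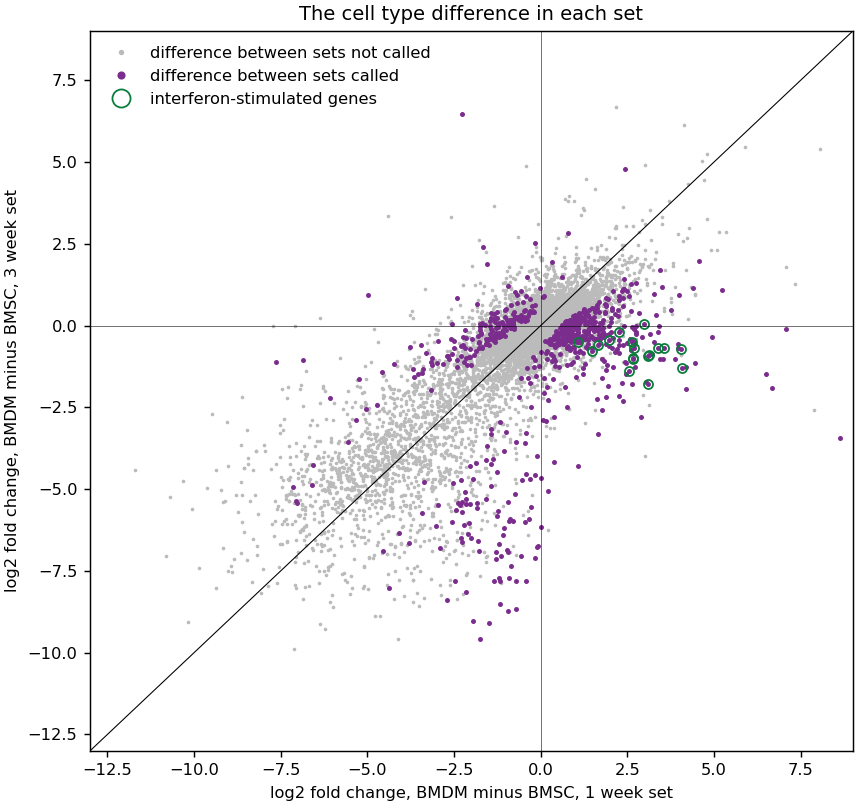
Log2 fold change (BMDM minus BMSC) in the 3 week set (vertical axis) against the 1 week set (horizontal axis), 1 point per tested gene, purple where edgeR called the difference between the sets, green rings for the 18 interferon-stimulated genes, with the line of equal values. The rings lie right of zero at 1 week and near or below zero at 3 weeks.

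Interferon-stimulated genes, which cells switch on after interferon receptor signalling, showed this most clearly. Over both sets 2 of 18 were called higher in BMDM and none in BMSC (median 1.38). In the 1 week set all 18 were higher in BMDM (median 2.69). In the 3 week set none was higher in BMDM and 5 were higher in BMSC (median -0.71). The difference between the sets was called for all 18. Every one of these genes was higher in both 3 week BMSC libraries than in all 1 week BMSC libraries, and 16 were higher in all 1 week than in both 3 week BMDM libraries. Single libraries mattered too: 1 week BMDM replicate 3 was the highest BMDM library and 3 week BMSC replicate 2 the highest BMSC library for all 18. The count over both sets was 14 without 3 week BMDM replicate 1, 13 without replicate 2 and 9 without 3 week BMSC replicate 2. It was 0, 1 and 0 without 1 week BMSC replicates 1, 2 and 3.

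The interferon-stimulated response element (ISRE) is the DNA site through which such genes respond. GAAA, any 2 bases and GAAA again were searched on both strands (on the other strand it reads TTTC, any 2 bases, TTTC). Of the 13 listed genes with a RefSeq start window, 9 held it, against 3.44% of all 32851 windows (GRCm38.p6, 250 bases before to 50 after the start). Several matches were held by 5 genes, of which Isg15, Ifit1 and Ifit3 are shown with the matches in capitals and Oas1a and Bst2, with 2 each, are not. The windows lie at chr4:156200769-156201068, - strand, at chr19:34640639-34640938, + strand, and at chr19:34583279-34583578, + strand. The 3 Isg15 matches overlap in one run.
Isg15: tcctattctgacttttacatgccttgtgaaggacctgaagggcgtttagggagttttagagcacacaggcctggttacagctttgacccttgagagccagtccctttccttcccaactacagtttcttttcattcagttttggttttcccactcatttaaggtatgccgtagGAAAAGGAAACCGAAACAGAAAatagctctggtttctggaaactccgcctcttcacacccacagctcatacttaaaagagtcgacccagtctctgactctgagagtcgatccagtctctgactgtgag
Ifit1: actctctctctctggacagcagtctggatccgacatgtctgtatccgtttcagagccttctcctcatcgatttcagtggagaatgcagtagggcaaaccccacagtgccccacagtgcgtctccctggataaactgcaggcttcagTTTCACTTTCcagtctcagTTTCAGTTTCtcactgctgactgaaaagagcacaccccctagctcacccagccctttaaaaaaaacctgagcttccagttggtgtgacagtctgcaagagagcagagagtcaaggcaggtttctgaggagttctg
Ifit3: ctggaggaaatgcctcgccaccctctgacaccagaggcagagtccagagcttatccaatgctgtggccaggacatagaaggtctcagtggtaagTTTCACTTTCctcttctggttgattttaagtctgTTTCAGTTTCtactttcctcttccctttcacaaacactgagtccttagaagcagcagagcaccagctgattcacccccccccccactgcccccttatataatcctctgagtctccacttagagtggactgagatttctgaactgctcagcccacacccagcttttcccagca
Ifi44, Oasl2, Irf7 and Ifit2 had a window without these letters, which says only that these letters are not there.

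The genes with these windows, and Irf7 below, were chosen after their values were seen. Isg15, a ubiquitin-like modifier gene, stood at 58.8, 36.6 and 74.1 CPM in 1 week BMDM, 28.9 and 36.6 in 3 week BMDM, 12.3, 7.19 and 11.2 in 1 week BMSC, and 57.3 and 79.6 in 3 week BMSC. At 1 week BMDM were higher and at 3 weeks BMSC (log2 fold changes 2.68 and -1.01, difference -3.68 ± 0.43, edgeR adjusted p = 0.000679). Ifit3, which encodes a binding partner of IFIT proteins that restrain viral RNA, stood at 189, 141 and 331 CPM in 1 week BMDM, 70.6 and 92.02 in 3 week BMDM, 23.5, 9.49 and 12.97 in 1 week BMSC, and 108 and 172 in 3 week BMSC. The order of the types turned in the same way (4.06 and -0.72, difference -4.78 ± 0.58, edgeR adjusted p = 0.000848). Irf7, the factor that amplifies interferon production, stood at 168, 139.7 and 274 CPM in 1 week BMDM, 84.6 and 107 in 3 week BMDM, 36.8, 14.8 and 26.9 in 1 week BMSC, and 278 and 416 in 3 week BMSC. Its 3 week BMSC libraries were above all 1 week BMSC libraries by several times (3.09 and -1.80, difference -4.88 ± 0.53, edgeR adjusted p = 0.000471). The members called over both sets were Oas2 and Gbp2. Oas2 (1.84 ± 0.54, adjusted p = 0.0169) lost its call without 1 week BMSC replicate 1 (adjusted p = 0.0547) or 3 (0.0617). Gbp2 (1.301 ± 0.42, adjusted p = 0.0262) lost it without 1 week BMSC replicate 1 (0.0895), 2 (0.0791) or 3 (0.0879).

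**Figure D5:**
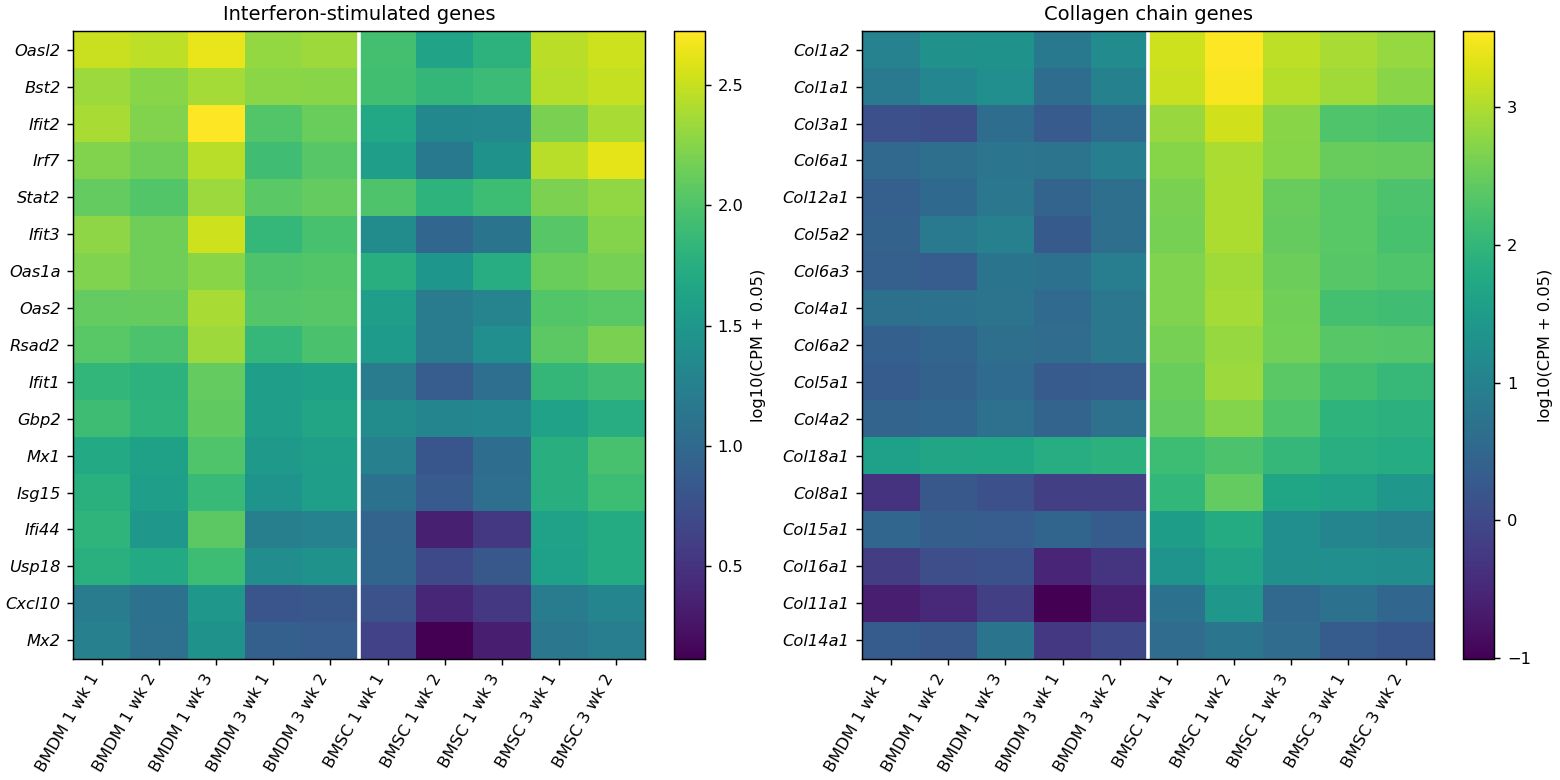
Level of 17 of the 18 interferon-stimulated genes (left) and the 17 collagen chain genes (right) in each control library, as log10 of CPM + 0.05, rows ordered by mean level, with a white line between BMDM and BMSC. Interferon-stimulated genes are brightest in 1 week BMDM replicate 3 and in the 3 week BMSC libraries, and collagen genes in 1 week BMSC replicate 2.

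Other lists shifted between the sets as well. For 13 of 15 neutrophil markers the BMDM-minus-BMSC value was lower at 3 weeks, and medians were -2.16 and -5.57; the summed BMDM level was 474 to 803 CPM at 1 week and 219 and 255 CPM at 3 weeks. Elane, the neutrophil elastase gene, stood at 6.09, 4.796 and 5.85 CPM in 1 week BMDM, 0.491 and 0.546 in 3 week BMDM, 103, 102 and 68.5 in 1 week BMSC, and 48.3 and 60.4 in 3 week BMSC (log2 fold changes -3.79 and -6.64, difference -2.85 ± 0.34, edgeR adjusted p = 0.000807). Of the class II genes 6 of 6 were called higher in BMDM at 1 week and 3 at 3 weeks (medians 3.60 and 1.04), and 4 of 6 differed between the sets, Cd74 among them (4.39 and 1.15, difference -3.24 ± 0.29, edgeR adjusted p = 0.000247). For 9 of 14 cholesterol genes the gap to BMSC was smaller at 3 weeks (medians -1.56 and -0.59).

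Stromal transcripts varied widely among BMSC libraries. The summed level of the stromal markers was 4754, 10359.7 and 3691 CPM at 1 week and 2538 and 2018 CPM at 3 weeks. All 1 week BMSC libraries were above both 3 week ones for 16 of 17 collagen genes. Replicate 2 of the 1 week set was the highest BMSC library for all 17 collagen chains, 17 of 18 stromal markers, all 10 pericyte markers and 13 of 14 endothelial markers. Without that library the median log2 fold change was -5.84 for collagens, -4.36 for stromal markers and -4.36 for endothelial markers, and 15, 17 and 11 of their members were called higher in BMSC. The summed macrophage markers in BMSC were 32497, 30054 and 37716 CPM at 1 week and 36767 and 36685 CPM at 3 weeks, lowest in the library with the most stromal transcripts.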

How the data were processed

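Per the labels' protocols, Trizol was used for RNA extraction and the integrity number exceeded 8.0. The submitters' processing notes name HISAT2 2.0.4 and the build mm10, and the authors deposited raw counts per gene for all 19 libraries in 1 table. The counting program, annotation and use of strand were not given in the sources used here, so reads of antisense partners may be mixed. Of 46095 symbols, 33980 matched GENCODE gene positions. The test was edgeR 4.0.16 in R 4.3.3 (quasi-likelihood, TMM scaling, filterByExpr, Benjamini-Hochberg adjusted p under 0.05) on the 10 control libraries with set and cell type as terms, 7 residual degrees of freedom and a common biological coefficient of variation of 0.204; a fit with 1 group per type and set tested each set and their difference. DESeq2 1.42.0 and other settings were alternatives. The scripts were tested on simulated data. Replicates differed by 4.30 to 97.9 times the counting variance, so none was a repeat deposit. Named genes were the 12 largest called differences in each direction without overlap at 5 CPM or more, up to 6 per list (3 smallest p in each direction first) with the most abundant tested member, 5 in each direction for the difference between sets, and the markers. The members and lists were chosen with earlier results of these data known. Some genes stay in the list counts but are not reported here by name. Set tests were not run.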

Additional observations from a re-analysis of the deposited data

Results flagged for a closer look

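Across 94 sets of 5 libraries (the summed level of each of 47 lists in each type) 9 had 1 library far from the others, where chance gives about 1 in 20. In BMSC, 1 week replicate 2 stood above the rest for pericyte and smooth muscle markers at 1747 CPM (nearest library 721 CPM), for collagen processing enzymes at 3450.5 CPM (1736 CPM), for matrix glycoproteins and proteoglycans at 12692 CPM (5896 CPM) and for Hox genes at 121 CPM (67.9 CPM). Proliferation genes were low in 1 week BMSC replicate 3 at 1286 CPM (1539 CPM). In BMDM, 1 week replicate 3 stood above the rest for stromal markers at 447 CPM (257 CPM), for collagen processing enzymes at 462 CPM (432 CPM) and for T and NK cell markers at 50.4 CPM (23.2 CPM), and monocyte and dendritic cell markers were low in 1 week replicate 2 at 840.1 CPM (967 CPM).

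The difference between cell types itself differed between the sets for 686 genes in edgeR, and the 5 with the smallest p in each direction are given here as the change in the log2 fold change (3 week minus 1 week). Higher at 3 weeks were the fatty acid desaturase gene Scd2 at 2.87, the gelatinase gene Mmp9 at 1.78, the hypoxia factor gene Epas1 at 2.46, the beta-secretase gene Bace1 at 1.98 and the calcium channel gene Itpr3 at 1.49. Lower at 3 weeks were the granule protein gene Prg2 at -5.91, Slfn1 at -6.14, the megakaryocyte integrin gene Itga2b at -4.43, the interferon-induced membrane protein gene Ifitm3 at -2.47 and the mast cell protease gene Prss34 at -5.55. Mmp9 stood at 39.6, 32.5 and 30.9 CPM in 1 week BMDM, 85.6 and 82.3 in 3 week BMDM, 128, 139.7 and 125 in 1 week BMSC, and 82.3 and 84.1 in 3 week BMSC. Its 1 week BMSC libraries were above all BMDM libraries, and the 3 week types overlapped.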

How the results depend on the processing

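Among 274 named genes, 5716 values under 21 alternatives gave 5415 on the same side of the threshold, 259 no longer called, 30 newly called and 12 reversed. A change of sign counted as reversed only where the gene was called in the main fit, the alternative or both. Genes called in neither could change sign and still count among the 5415. All 12 reversals came from the 3 week set fitted alone, with log2 fold changes of -0.43 for C1qb, -0.30 for Calr, -0.33 for Cd209f, -0.0104 for Cfp, -0.00881 for Fcgr4, 0.12 for Flna, -0.22 for Gbp2, 0.43 for Igf2r, 0.46 for Itpr3, -0.23 for Lyz2, 0.0680 for Mmp9 and -1.94 for Slfn1; the cause was not tested. Of the counts, scaling by library size alone gave 1862 genes higher in BMDM against 2983. Requiring a log2 change of at least 1 gave 1906 genes against 6578, 195 against 2983 and 1711 against 3595 by direction, 2147 against 7585 at 1 week, 1273 against 2790 at 3 weeks and 146 against 686 for the difference. The 3 week count was 6080 with that set fitted alone and 6610 with a replicate block added, and the 1 week count was 4920 with the block in that set alone. The difference between the sets gave 1782 genes without a count filter, 1231 with all 19 libraries and 1348 in DESeq2. Leaving out single libraries gave 5394 to 6591 genes over both sets, 2222 to 3002 higher in BMDM, 3138 to 3663 higher in BMSC, 6013 to 8420 at 1 week, 1460 to 3363 at 3 weeks and 220 to 2693 for the difference. Deviations of same-numbered libraries from their group means correlated at -0.054, -0.021 and -0.247 at 1 week and -0.022 at 3 weeks. Within such small groups the deviations cancel out, so these values cannot show whether equal replicate numbers mark a shared origin. Over both sets the replicate block gave 5031 genes (2036 and 2995). Under it 8 lysosomal genes, 0 interferon-stimulated genes and 4 lipid-associated genes were higher in BMDM. With 2 libraries per type, the 3 week set alone is the least certain comparison, and genes with a few counts in 1 type have wide intervals.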

Other observations

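Immediate early genes, which cells transcribe within minutes of a stimulus, split by family member, 4 of 15 higher in BMDM and 5 in BMSC (median log2 fold change -0.23). Egr1, a zinc finger factor gene, stood at 5.54, 4.47 and 6.25 CPM in 1 week BMDM, 8.11 and 8.64 in 3 week BMDM, 47.5, 38.8 and 19.8 in 1 week BMSC, and 40.6 and 46.1 in 3 week BMSC. BMSC libraries were all above BMDM libraries (log2 fold change -2.404 ± 0.20, edgeR adjusted p = 3.04e-06). Fosl1, a member of the AP-1 family, was also higher in BMSC at 1.12 ± 0.409 CPM in BMDM against 7.73 ± 1.68 in BMSC (-2.66 ± 0.20, adjusted p = 1.96e-06). Dusp1, which encodes a phosphatase that ends MAP kinase signals, was higher in BMDM at 121 ± 17.6 CPM in BMDM against 53.6 ± 17.5 in BMSC (1.38 ± 0.22, adjusted p = 0.000487), as was the AP-1 gene Jund (1.25 ± 0.18, adjusted p = 0.000222). Inflammatory genes gave 2 higher in BMDM and 6 in BMSC of 14 tested (median -0.79), with the acute phase gene Saa3 at 3.08 ± 0.751 CPM in BMDM against 46.8 ± 12.6 in BMSC (-3.74 ± 0.23, adjusted p = 5.86e-07). The neutrophil attractant gene Cxcl1 was at 0.802 ± 0.5697 CPM in BMDM against 3.48 ± 1.17 in BMSC (-2.06 ± 0.36, adjusted p = 0.000838). The macrophage chemokine gene Ccl4 was on the BMDM side at 25.5 ± 4.63 CPM in BMDM against 18.3 ± 9.62 in BMSC (0.76 ± 0.21, adjusted p = 0.0131).

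Of 9 complement components 5 were higher in BMSC and 1 in BMDM (median -0.69), with C3, the central component, at 82.9 ± 45.02 CPM in BMDM against 185 ± 27.5 in BMSC (-1.04 ± 0.27, adjusted p = 0.00802). No call towards BMDM was made on leaving out any single 1 week BMDM library or 1 week BMSC replicate 1. Of 13 scavenger receptor genes 4 were higher in BMSC and 1 in BMDM (median -0.01), and the latter was not called on leaving out any single 1 week library. Of 5 erythroid markers tested of 10, 1 was higher in BMSC, the transferrin receptor gene Tfrc at 185 ± 58.997 CPM in BMDM against 586 ± 51.6 in BMSC (-1.53 ± 0.18, adjusted p = 5.13e-05), and the haemoglobin genes were not called. None of the 4 sex-linked genes tested was called in edgeR over both sets, with 1 called higher in BMDM without 3 week BMDM replicate 2 and 1 in the 1 week set. In addition, the 1 skeletal muscle marker tested of 8, Acta1, was at 0.565 ± 0.232 CPM in BMDM against 0.352 ± 0.253 in BMSC and not called (0.95 ± 0.46, adjusted p = 0.109).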
